A study of Mus musculus with 3 samples.

Results

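Vasomotor genes, which set the tone of blood vessels, are described here in RNA from brain vessels of mice. The genes are 10 named members of the nitric oxide, endothelin and angiotensin pathways, out of 29787 genes matched in the deposited tables. They were Nos3, Npr1, Prkg1, Edn1, Edn3, Ece1, Ednra, Ednrb, Ace and Agtr1a, chosen by name from a list of pathway genes, and all 10 passed the level filter that 16317 genes of the series passed. There were 3 groups of 3-month-old mice with 1 RNA-seq library each. The Cx43-deleted group carried floxed alleles of the connexin 43 gene and a Cre recombinase driven by the human GFAP promoter (hGFAP-Cre/Cx43fl/fl), on a C57BL6-BALB/c background. That promoter is active in astroglia and in their embryonic precursors, and the cells of the vessel wall itself are not its main target. The comparison groups were wild-type (WT) mice of the C57BL6-BALB/c background and WT mice of the C57BL6 background. The labels do not tell whether a library came from 1 animal or several. Cx43-deleted and WT C57BL6-BALB/c differ in the deletion on a matched background, and the WT libraries differ in background without the deletion. With 1 library per group, neither difference can be told apart from other differences between the libraries, such as their mix of cells.

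Arterial smooth muscle contracts and relaxes under opposing signals. Endothelial cells make nitric oxide, which raises cyclic GMP in smooth muscle, and cyclic GMP acts through a protein kinase that relaxes the muscle. Endothelins are peptides cut from larger precursors by a converting enzyme, and they constrict vessels through ETA receptors on smooth muscle, while ETB receptors on endothelium release nitric oxide and clear the peptide. Angiotensin II, which angiotensin-converting enzyme cuts from an inactive precursor, constricts vessels through AT1 receptors. Astrocyte endfeet cover these vessels and also take part in the control of local blood flow.

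The endothelin ligands Edn1 and Edn3 differed in opposite directions between the libraries of the shared background. The stretches of their messages that encode the mature peptides are shown. They are a small part of the transcripts, which have 2138 bases for Edn1 and 3117 bases for Edn3. Both stretches lie in exon 2 of their genes in GENCODE M21 on GRCm38, on the plus strand, at chr13:42303649-42303711 for Edn1 and chr2:174761749-174761811 for Edn3. Capitals mark the bases at which the pair differ.
Edn1: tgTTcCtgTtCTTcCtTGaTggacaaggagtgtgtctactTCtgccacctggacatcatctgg
Edn3: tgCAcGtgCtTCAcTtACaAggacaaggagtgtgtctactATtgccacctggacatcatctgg
Of the 63 bases, 13 differ, and of the 21 encoded residues, 6 differ. The longest run without a difference is 21 bases.

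The Cx43-deleted library held 54975610 reads, against 21170766 reads in the WT C57BL6-BALB/c library and 24830975 reads in the WT C57BL6 library, so the WT libraries are the less precise. With no replicates there is no test, and every difference given holds between single libraries only. A level is the normalised count (CPM, reads scaled to a common library size) of the gene's most abundant transcript, a fold is the ratio of such levels, and the interval after a fold is an exact 95% binomial interval that covers counting error only. A gene was called different at 2-fold or more. Gja1, the deleted gene, had 48.0 CPM in the Cx43-deleted library, against 203 CPM in WT C57BL6-BALB/c and 201 CPM in WT C57BL6. RNA of vessel cells was present: all 24 endothelial, 20 smooth muscle and 16 pericyte markers of the lists used were measured with reads in every library. Such reads do not show how far vessels were enriched. Markers of 18 astrocyte, 16 neuron and 15 choroid plexus genes were measured as well, so the RNA is not of vessel cells alone. In bulk RNA, fewer cells of a type and less RNA per cell cannot be told apart.

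The vasomotor genes were mostly lower in the Cx43-deleted library than in the WT libraries. Of the 10, 8 lay below both WT libraries, where 36.2% of all genes did, and 0 lay above both, where 33.0% did. None differed by 2-fold or more from both WT libraries, where 0.349% of all genes lay below and 0.380% above. For 5 of the 8 (Nos3, Edn3, Ece1, Ednra and Ednrb) the counting interval lay below 1 against each WT library, while Npr1, Prkg1 and Agtr1a were within counting error of the nearer one. Edn1 and Ace lay between the WT libraries. The WT C57BL6 library was the highest for 8 of the 10, where it was the highest for 43.1% of all genes. Neither trait was particular to the vasomotor genes. Below both WT libraries also lay 16 of 20 smooth muscle, 16 of 24 endothelial, 9 of 16 pericyte and 12 of 18 astrocyte markers. Neuron and choroid plexus markers lay there less often, 6 of 16 and 2 of 15. WT C57BL6 was the highest for 23 of 24 endothelial and 15 of 16 pericyte markers, but for 1 of 20 smooth muscle markers. Both folds of a gene use the same Cx43-deleted library, so they are not independent of each other.

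**Figure D1:**
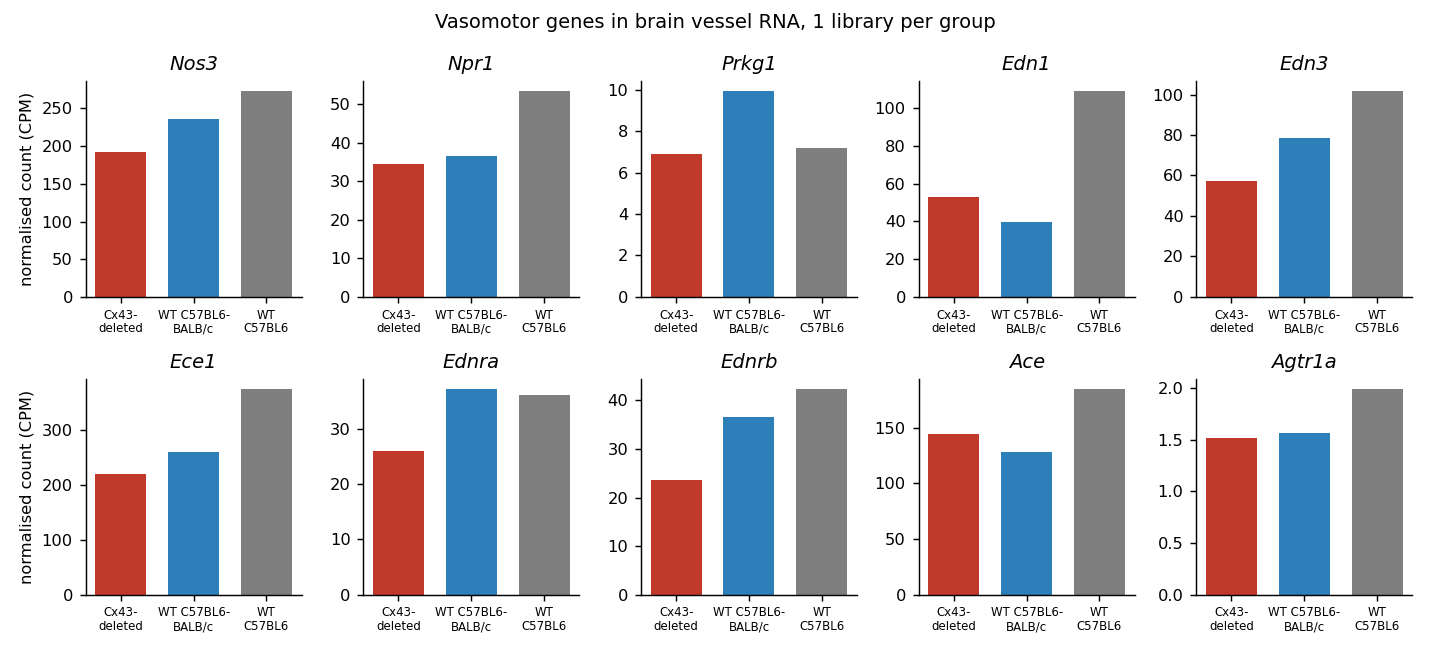
Normalised count (CPM, from 0) of each of the 10 vasomotor genes in each library, with bars from left to right for Cx43-deleted, WT C57BL6-BALB/c, then WT C57BL6. The Cx43-deleted bar is the lowest in 8 of the 10 panels, and for Edn1 and Ace it stands between the WT bars.

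Against the background-matched WT C57BL6-BALB/c library, 8 of the 10 were lower, as were 50.8% of all genes, and Edn1 and Ace were higher. The log2 ratios ran from −0.62 (Ednrb) to 0.40 (Edn1), with a median of −0.27 beside −0.0049 over all genes. No member passed 2-fold in this comparison, where 0.932% of all genes were that much lower and 0.901% that much higher. The counting interval lay apart from 1 for 8 members, and it included 1 for Npr1 and Agtr1a. Against WT C57BL6 all 10 were lower, as were 52.4% of all genes, with log2 ratios from −1.04 (Edn1) to −0.05 (Prkg1) and a median of −0.56 beside −0.026 over all genes. There, Edn1 alone passed 2-fold, where 2.59% of all genes were that much lower and 1.41% that much higher. Between the WT libraries, C57BL6-BALB/c over C57BL6, 8 were lower, as were 52.2% of all genes, and the median was −0.32 beside −0.020. Edn1 again was the member past 2-fold, where 1.72% of all genes were that much lower and 1.09% that much higher.

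**Figure D2:**
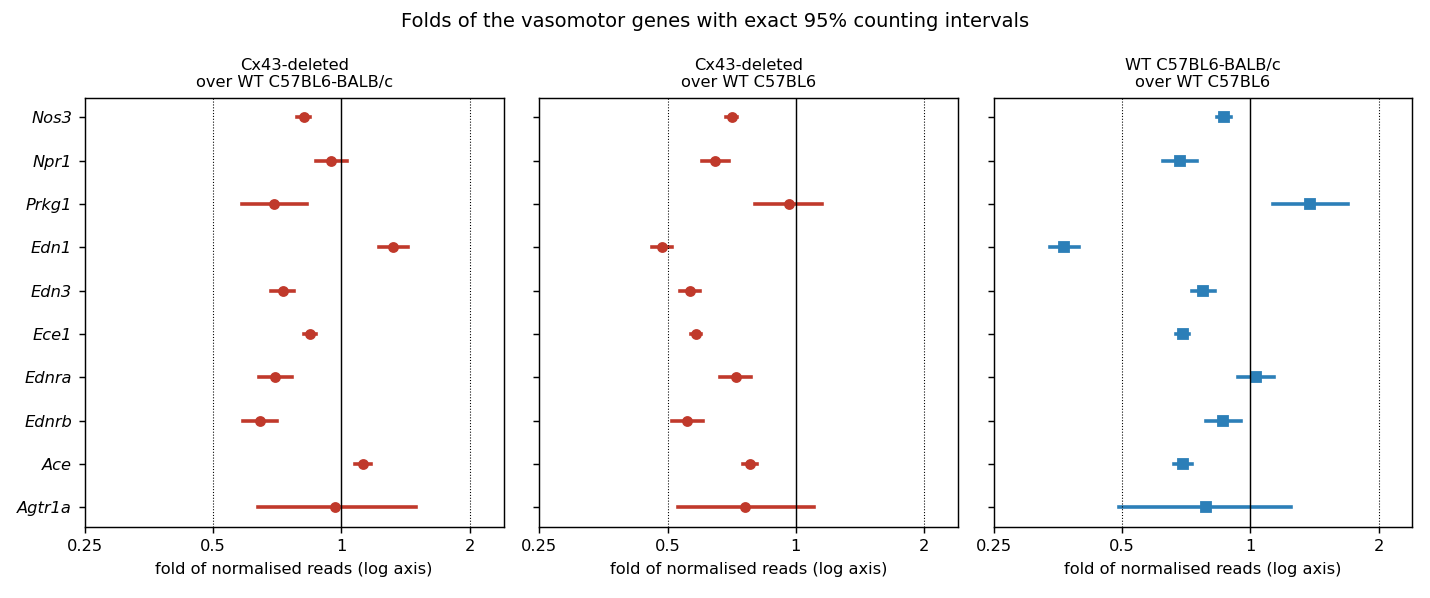
Fold of the normalised reads of each gene (log axis) for Cx43-deleted over each WT library and for WT C57BL6-BALB/c over WT C57BL6. Lines are exact 95% counting intervals, the solid vertical marks equal levels and the dotted ones a 2-fold difference, which Edn1 passes in the middle and right panels.

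Nos3 (ENSMUSG00000028978; GRCm38 chromosome 5, 24364810 to 24384474) encodes the nitric oxide synthase of endothelium. Its level was 193 CPM in the Cx43-deleted library, against 237 CPM in WT C57BL6-BALB/c and 273 CPM in WT C57BL6, from 10336 reads in the Cx43-deleted library, 4983 reads in WT C57BL6-BALB/c and 6987 reads in WT C57BL6. The Cx43-deleted library was thus the lowest, at 0.815-fold of WT C57BL6-BALB/c (0.788 to 0.843) and 0.707-fold of WT C57BL6 (0.686 to 0.729). Of the exon bases of Nos3, 32.3% also belong to Atg9b (294 bases) and Gm15587 (1040 bases) on the opposite strand. The library kit does not keep the strand, so part of the Nos3 reads could be theirs, and part of theirs could be of Nos3. Counted over its own whole transcript, Atg9b stood at 4.01 RPKM (CPM per kilobase of transcript) in the Cx43-deleted library, against 4.67 RPKM in WT C57BL6-BALB/c and 6.23 RPKM in WT C57BL6. Gm15587 stood at 13.7 RPKM in the Cx43-deleted library, against 16.3 RPKM in WT C57BL6-BALB/c and 17.5 RPKM in WT C57BL6. Nos3 itself had 46.7 RPKM in the Cx43-deleted library, against 57.3 RPKM in WT C57BL6-BALB/c and 66.0 RPKM in WT C57BL6. All 3 genes had the same order over the libraries, but reads on the shared bases may count for each, so these orders are not independent.

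Npr1 (chromosome 3, 90450591 to 90465866) encodes the receptor of atrial and B-type natriuretic peptides, a membrane guanylyl cyclase that makes cyclic GMP without nitric oxide. It had 34.5 CPM in the Cx43-deleted library, against 36.5 CPM in WT C57BL6-BALB/c and 53.3 CPM in WT C57BL6. The difference from WT C57BL6-BALB/c was within counting error, at 0.947-fold (0.870 to 1.03), while it was 0.647-fold of WT C57BL6 (0.604 to 0.695). The libraries of the shared background therefore stood together and the C57BL6 library apart. The antisense gene Gm16048 shares 11.7% of the exon bases of Npr1, so part of its reads cannot be assigned.

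Prkg1 (chromosome 19, 30564489 to 31765033) encodes the cyclic GMP-dependent protein kinase through which both routes relax smooth muscle. It was at 6.91 CPM in the Cx43-deleted library, against 9.93 CPM in WT C57BL6-BALB/c and 7.18 CPM in WT C57BL6, from 370 reads in the Cx43-deleted library, 209 reads in WT C57BL6-BALB/c and 184 reads in WT C57BL6. Here the mixed-background WT library stood apart as the highest, at 1.38-fold of WT C57BL6 (1.13 to 1.69). The Cx43-deleted library was at 0.696-fold of WT C57BL6-BALB/c (0.586 to 0.828), and its difference from WT C57BL6 was within counting error, at 0.962-fold (0.803 to 1.15). Prkg1 and Ednra were the members highest in WT C57BL6-BALB/c.

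Edn1 (chromosome 13, 42301476 to 42307990) encodes the precursor of endothelin 1, the constrictor peptide released by endothelium. Its level was 52.7 CPM in the Cx43-deleted library, against 39.8 CPM in WT C57BL6-BALB/c and 109 CPM in WT C57BL6, from 2825 reads in the Cx43-deleted library, 839 reads in WT C57BL6-BALB/c and 2788 reads in WT C57BL6. Of all members it varied most, and the larger gap lay between the WT libraries: WT C57BL6-BALB/c was at 0.366-fold of WT C57BL6 (0.339 to 0.396). The Cx43-deleted library was at 1.32-fold of WT C57BL6-BALB/c (1.23 to 1.43) and 0.484-fold of WT C57BL6 (0.460 to 0.511). The sign of its difference therefore depended on the WT library it was set against.

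Edn3 (chromosome 2, 174760619 to 174784042) encodes the precursor of endothelin 3, which acts mainly on the ETB receptor. It was at 57.3 CPM in the Cx43-deleted library, against 78.7 CPM in WT C57BL6-BALB/c and 102 CPM in WT C57BL6. The Cx43-deleted library was the lowest, at 0.728-fold of WT C57BL6-BALB/c (0.685 to 0.773) and 0.564-fold of WT C57BL6 (0.535 to 0.594). So Edn1 and Edn3 differed in opposite directions from the background-matched WT library. Per length, Edn1 over Edn3 was 1.34 in the Cx43-deleted library (1.28 to 1.41), against 0.738 in WT C57BL6-BALB/c (0.678 to 0.802) and 1.56 in WT C57BL6 (1.48 to 1.65). The mixed-background WT library was the one in which Edn3 exceeded Edn1.

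Ece1 (chromosome 4, 137862237 to 137965229) encodes the endothelin-converting enzyme, which cuts the inactive intermediate to the active peptide. It had 219 CPM in the Cx43-deleted library, against 260 CPM in WT C57BL6-BALB/c and 375 CPM in WT C57BL6, from 11743 reads in the Cx43-deleted library, 5474 reads in WT C57BL6-BALB/c and 9606 reads in WT C57BL6, the most of any member. Its order over the libraries was that of Nos3 and Edn3, with folds of 0.843 to WT C57BL6-BALB/c (0.817 to 0.871) and 0.585 to WT C57BL6 (0.569 to 0.601).

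Ednra (chromosome 8, 77663031 to 77724464) encodes the ETA receptor, which mediates constriction of smooth muscle. It was at 26.1 CPM in the Cx43-deleted library, against 37.3 CPM in WT C57BL6-BALB/c and 36.1 CPM in WT C57BL6. The WT libraries did not differ beyond counting error, at 1.03-fold (0.938 to 1.14), and the Cx43-deleted library was below each by a like amount, 0.700-fold of WT C57BL6-BALB/c (0.641 to 0.765) and 0.723-fold of WT C57BL6 (0.664 to 0.786). Among the 10, Ednra alone had WT levels within counting error of each other and a Cx43-deleted level beyond counting error from each.

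Ednrb (chromosome 14, 103814625 to 103844402) encodes the ETB receptor of endothelium and astrocytes. It had 23.6 CPM in the Cx43-deleted library, against 36.6 CPM in WT C57BL6-BALB/c and 42.4 CPM in WT C57BL6. Among the 8 members below both WT libraries it was the furthest below the nearer one, at 0.644-fold of WT C57BL6-BALB/c (0.588 to 0.705), and it was at 0.557-fold of WT C57BL6 (0.513 to 0.604). Both endothelin receptors thus lay below both WT libraries while Edn1 did not. Per length, Ednra over Ednrb was 1.18 in the Cx43-deleted library (1.10 to 1.28), against 1.09 in WT C57BL6-BALB/c (0.985 to 1.21) and 0.912 in WT C57BL6 (0.835 to 0.997).

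Ace (chromosome 11, 105967945 to 105989964) encodes angiotensin-converting enzyme, which sits on endothelium and choroid plexus and also breaks down bradykinin. It was at 144 CPM in the Cx43-deleted library, against 128 CPM in WT C57BL6-BALB/c and 185 CPM in WT C57BL6. Like Edn1 it lay between the WT libraries, at 1.12-fold of WT C57BL6-BALB/c (1.07 to 1.17) and 0.780-fold of WT C57BL6 (0.753 to 0.809). The opposite-strand gene Gm11651 shares 5.58% of its exon bases. Agtr1a (chromosome 13, 30336441 to 30382867) encodes the AT1a receptor of angiotensin II. It had 1.51 CPM in the Cx43-deleted library, against 1.57 CPM in WT C57BL6-BALB/c and 1.99 CPM in WT C57BL6, from 81 reads in the Cx43-deleted library, 33 reads in WT C57BL6-BALB/c and 51 reads in WT C57BL6. At this depth no difference was detectable in any comparison: the fold was 0.965 to WT C57BL6-BALB/c (0.636 to 1.49) and 0.759 to WT C57BL6 (0.528 to 1.10). Reads reached 72.0% of its transcript's bases in the Cx43-deleted library, against 51.8% of them in WT C57BL6-BALB/c and 60.3% of them in WT C57BL6, and at least 82.0% for each other member in every library.

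Levels per length placed Nos3 and Ece1 first, and Prkg1 and Agtr1a last, in each library. In the Cx43-deleted library Nos3 (46.7 RPKM) and Ece1 (45.5 RPKM) came first and did not differ from each other beyond counting error. Ace (29.4 RPKM), Edn1 (24.7 RPKM) and Edn3 (18.4 RPKM) followed, then the receptors Npr1 (8.49 RPKM), Ednra (7.20 RPKM) and Ednrb (6.08 RPKM), and last Prkg1 (1.87 RPKM) and Agtr1a (0.688 RPKM). Nos3, Ece1, Ace and both ligands thus stood above the 4 receptors, while the kinase Prkg1 stood below Npr1, Ednra and Ednrb. In WT C57BL6-BALB/c the order began with Nos3 (57.3 RPKM) and Ece1 (54.0 RPKM). There, Ace and Edn3, at 26.1 and 25.3 RPKM, were within counting error of each other, as were the neighbours Ednra and Ednrb and the neighbours Ednrb and Npr1. In WT C57BL6, Ece1 (77.9 RPKM) stood above Nos3 (66.0 RPKM), and Edn1 (50.9 RPKM) above Ace (37.6 RPKM), each beyond counting error. Nos3 over Edn1, the dilator enzyme against the constrictor ligand, was 1.89 in the Cx43-deleted library (1.82 to 1.97), against 3.07 in WT C57BL6-BALB/c (2.86 to 3.31) and 1.30 in WT C57BL6 (1.24 to 1.35).

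**Figure D3:**
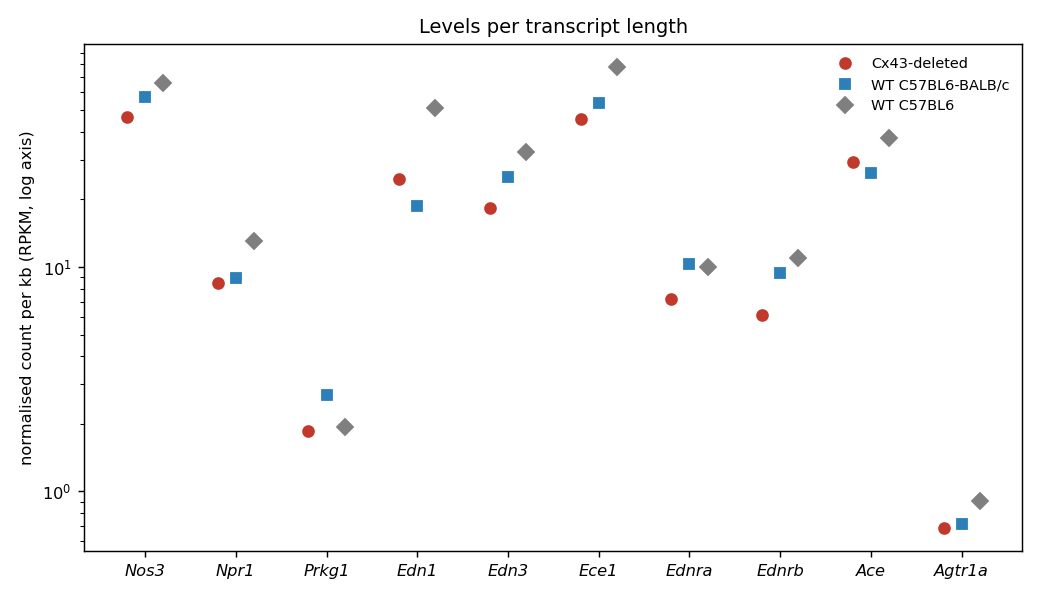
Normalised count per kilobase (RPKM, log axis) of each gene, with a circle for Cx43-deleted, a square for WT C57BL6-BALB/c and a diamond for WT C57BL6. Nos3 and Ece1 lie at the top and Agtr1a at the bottom in all 3 libraries, and Edn1 has the widest spread.

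Markers of the cells that carry these genes also differed between the libraries, and their part in the results was not tested. Smooth muscle markers, such as Acta2, Myh11, Tagln and Cnn1, had a median log2 ratio of −0.84 to WT C57BL6-BALB/c, with 19 of 20 lower, and of −0.48 to WT C57BL6, with 16 of 20 lower. Their summed level was 2192 CPM in the Cx43-deleted library, against 3759 CPM in WT C57BL6-BALB/c and 2795 CPM in WT C57BL6, the order of Prkg1 and Ednra. For each of these genes 1 step of that order was within counting error: Cx43-deleted to WT C57BL6 for Prkg1, and the WT pair for Ednra. Relative to the smooth muscle median, the log2 ratio of Ednra was 0.34 with WT C57BL6-BALB/c as the baseline and 0.02 with WT C57BL6. That of Prkg1 was 0.35 with WT C57BL6-BALB/c and 0.43 with WT C57BL6. This was not particular to Ednra and Prkg1: with WT C57BL6-BALB/c the other members also stood above 0, from 0.22 (Ednrb) to 1.24 (Edn1). Set against the endothelial median instead, Ednra was at −0.42 to WT C57BL6-BALB/c and 0.34 to WT C57BL6. Prkg1 was then at −0.41 to WT C57BL6-BALB/c and 0.75 to WT C57BL6. Endothelial markers, such as Pecam1, Cdh5, Cldn5 and Tek, had a median of −0.09 to WT C57BL6-BALB/c, with 16 of 24 lower, and of −0.81 to WT C57BL6, with 23 of 24 lower, and a summed level of 8117 CPM in the Cx43-deleted library, against 7719 CPM in WT C57BL6-BALB/c and 12310 CPM in WT C57BL6. That is the order of Edn1 and Ace, but it rests on Slc2a1, the glucose transporter of the blood-brain barrier. Without Slc2a1 the sum was 5999 CPM in the Cx43-deleted library, against 6453 CPM in WT C57BL6-BALB/c and 10640 CPM in WT C57BL6. Relative to the endothelial median, the log2 ratio of Nos3 was −0.21 to WT C57BL6-BALB/c and 0.31 to WT C57BL6, so its sign depended on the WT library. That of Edn3 was −0.37 to WT C57BL6-BALB/c and −0.016 to WT C57BL6, and that of Ednrb −0.54 to WT C57BL6-BALB/c and −0.027 to WT C57BL6. Ednrb is also a gene of astrocytes, and it was not set against their median. Its own log2 ratios were −0.62 to WT C57BL6-BALB/c and −0.83 to WT C57BL6, where the astrocyte medians were −0.18 and −0.31. Pericyte markers, such as Pdgfrb and Cspg4, had a median of −0.08 to WT C57BL6-BALB/c, with 9 of 16 lower, and of −0.81 to WT C57BL6, with 16 of 16 lower.

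Markers of other cell types differed as well, and their part was likewise not tested. Choroid plexus markers, among them Ttr and Folr1, summed to 4566 CPM in the Cx43-deleted library, against 3522 CPM in WT C57BL6-BALB/c and 8618 CPM in WT C57BL6, the order of Edn1 and Ace, whichever 1 gene of the list was left out. Astrocyte markers, such as Gfap and Aqp4, had a median of −0.18 to WT C57BL6-BALB/c, with 12 of 18 lower, and of −0.31 to WT C57BL6, with 14 of 18 lower. Neuron markers had a median of −0.09 to WT C57BL6-BALB/c and 0.38 to WT C57BL6, and were the one marker list with a median above WT C57BL6. Fibroblast markers had a median of −0.07 to WT C57BL6-BALB/c and −0.43 to WT C57BL6, and microglia markers of −0.0028 to WT C57BL6-BALB/c and −0.56 to WT C57BL6. Immediate early genes, which cells switch on within minutes of many stimuli, had a median of −0.99 to WT C57BL6-BALB/c, with 24 of 27 lower, and of −1.27 to WT C57BL6, with 27 of 27 lower.

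**Figure D4:**
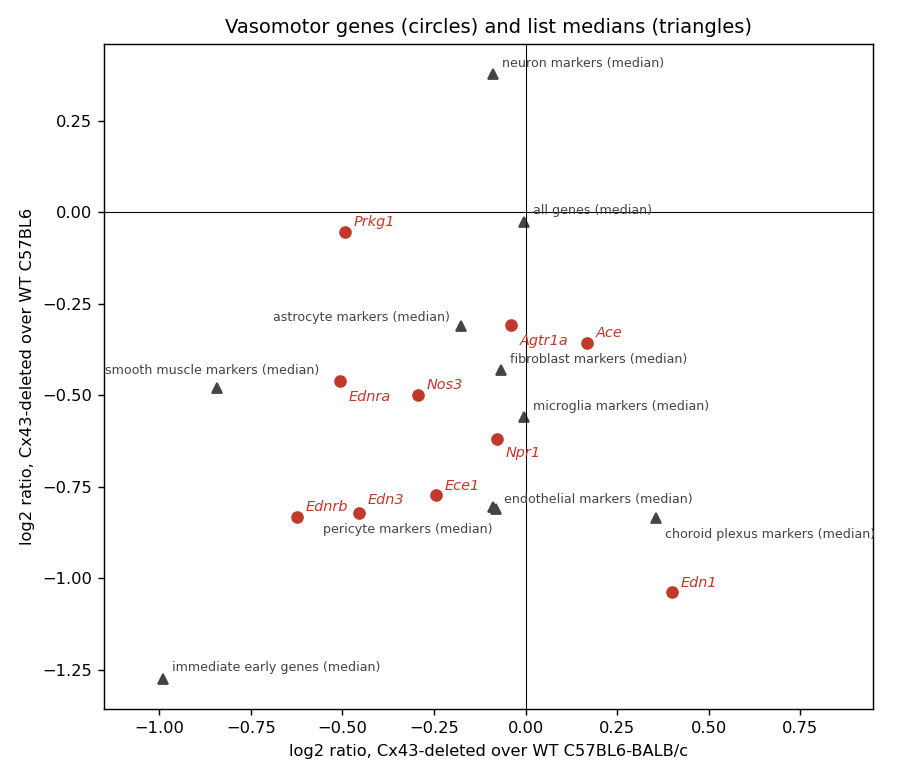
Log2 ratio of Cx43-deleted over WT C57BL6-BALB/c (horizontal) and over WT C57BL6 (vertical) for the 10 vasomotor genes (circles) and for the medians of marker lists (triangles). The axes share the Cx43-deleted library. Edn1 lies at the lower right with the choroid plexus median, and Ednrb, Edn3 and Ece1 lie at the height of the endothelial and pericyte medians but to their left.

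The deposited tables list several transcripts for most members. The transcripts of a gene share exons, and how reads were assigned among them is not stated, so these counts may be partly the same reads. Ace-202 starts inside the gene, as the form known from the testis does. For every 100 reads on the full-length Ace-201 it had 57.5 reads in the Cx43-deleted library, against 56.1 reads in WT C57BL6-BALB/c and 59.3 reads in WT C57BL6, near equal in the 3 libraries. Ednra-202, which keeps an intron, had 26.5 reads per 100 of Ednra-201 in the Cx43-deleted library, against 24.6 reads in WT C57BL6-BALB/c and 25.4 reads in WT C57BL6, so the difference in Ednra was of like size on both. Its fold was 0.754 to WT C57BL6-BALB/c (0.631 to 0.901) and 0.753 to WT C57BL6 (0.638 to 0.890). Prkg1-202, which starts at another first exon than Prkg1-201, had 71.9 reads per 100 of it in the Cx43-deleted library, against 65.1 reads in WT C57BL6-BALB/c and 65.8 reads in WT C57BL6. For Edn3, the short coding transcript Edn3-203 had 22.6 reads per 100 of Edn3-201 in the Cx43-deleted library, against 23.6 reads in WT C57BL6-BALB/c and 18.8 reads in WT C57BL6. Every base of Edn3-203 was covered in each library. Edn1 and Ednrb were each measured on a single matched transcript.

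The rest of the nitric oxide and cyclic GMP pathway was spread to both sides. Of 35 other genes listed, 32 were measured, with 16 below both WT libraries and 6 above, none of them by 2-fold, where 36.2% of all genes lay below both and 33.0% above. Their median log2 ratio was −0.19 to WT C57BL6-BALB/c and −0.21 to WT C57BL6. Furthest below both was Nppc, the precursor of the C-type natriuretic peptide, at 1.90 CPM in the Cx43-deleted library, against 4.56 CPM in WT C57BL6-BALB/c and 3.47 CPM in WT C57BL6. Nos1, the neuronal nitric oxide synthase, was at 55.7 CPM in the Cx43-deleted library, against 85.8 CPM in WT C57BL6-BALB/c and 91.6 CPM in WT C57BL6. Nos2, the inducible synthase, was at 3.01 CPM in the Cx43-deleted library, against 4.51 CPM in WT C57BL6-BALB/c and 10.8 CPM in WT C57BL6. All 3 nitric oxide synthases were thus lower in the Cx43-deleted library than in both WT libraries. Above both lay Npr2, the receptor of the C-type peptide, at 219 CPM in the Cx43-deleted library, against 165 CPM in WT C57BL6-BALB/c and 142 CPM in WT C57BL6. Nostrin, which binds the endothelial synthase and directs its traffic, was at 38.8 CPM in the Cx43-deleted library, against 26.0 CPM in WT C57BL6-BALB/c and 28.0 CPM in WT C57BL6. Pde9a, a phosphodiesterase that breaks down cyclic GMP, was above both by a log2 ratio of 0.32 to the nearer WT library. Nostrin and its partner Nos3 stood on opposite sides of both WT libraries, as did Npr2 and its ligand Nppc. Nostrin, Npr2 and Nppc were named for lying furthest above or below both WT libraries. Their opposite positions therefore tell nothing of how partners are linked. Of the subunits of the soluble guanylyl cyclase that senses nitric oxide, Gucy1a1 lay below both by a log2 ratio of −0.19 to the nearer WT library. Gucy1b1 lay below both by −0.32. Gucy1a2 was at 0.63-fold of WT C57BL6-BALB/c (0.52 to 0.76), but within counting error of WT C57BL6, at 0.98-fold (0.80 to 1.20). These subunits were chosen after their values were seen.

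Of 17 other endothelin pathway genes listed, 15 were measured, with 6 below both WT libraries and 3 above, beside 36.2% and 33.0% of all genes, so the share below was near that of all genes. The median log2 ratio was −0.11 to WT C57BL6-BALB/c and −0.022 to WT C57BL6. The G proteins that couple the receptors lay below both, Gna12 by a log2 ratio of −0.34, Gna11 by −0.20 and Gnaq by −0.17 to whichever WT library was nearer. Ece2, a second converting enzyme known from neurons, lay above both, at 125 CPM in the Cx43-deleted library, against 105 CPM in WT C57BL6-BALB/c and 66.6 CPM in WT C57BL6. The related peptidase gene Ecel1 and the phospholipase gene Plcb4 were above both by log2 ratios of 0.12 and 0.13. The difference of Ecel1 from WT C57BL6-BALB/c was within counting error, at 1.09-fold (0.993 to 1.20). Edn2, the remaining endothelin, had 3 reads in the Cx43-deleted library, against 5 reads in WT C57BL6-BALB/c and 4 reads in WT C57BL6, and did not pass the level filter; it is named after its values were seen.

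Of 20 other angiotensin pathway genes listed, 17 were measured, with 8 below both WT libraries and 4 above, again beside 36.2% and 33.0% of all genes. The median log2 ratio was −0.10 to WT C57BL6-BALB/c and −0.33 to WT C57BL6. Enpep, the aminopeptidase that trims angiotensin II, was the furthest below, at 17.9 CPM in the Cx43-deleted library, against 26.7 CPM in WT C57BL6-BALB/c and 35.6 CPM in WT C57BL6. Agtr1b, the second AT1 receptor gene of the mouse, followed with 0.803 CPM in the Cx43-deleted library, against 1.95 CPM in WT C57BL6-BALB/c and 1.13 CPM in WT C57BL6. From 43 reads in the Cx43-deleted library, its difference from WT C57BL6 was within counting error, at 0.709-fold (0.433 to 1.18). Prep, a prolyl peptidase, was at a log2 ratio of −0.30 to the nearer WT library. Agt, the angiotensin precursor, which brain astrocytes make, lay above both, at 38.9 CPM in the Cx43-deleted library, against 29.4 CPM in WT C57BL6-BALB/c and 33.4 CPM in WT C57BL6. Mas1, a receptor of the shorter peptide angiotensin 1-7, and Arrb2, an arrestin that uncouples receptors, were above both by 0.21 and 0.24.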

How the data were processed

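Per the labels' protocols, polyadenylated RNA was purified from total RNA of brain vessels and libraries were made with the TruSeq RNA v2 kit, which keeps no strand. The submitters' processing notes name CASAVA 1.8.2 and Bowtie, and mm10 as the build. How reads were counted, on which annotation release, and what became of reads that match several places is not stated there or in the labels. The authors deposited raw read counts for 82813 Ensembl transcripts per library, and each count also as a fraction of the library total, per the file headers, beside each transcript's length and its bases with no read. Dividing the deposited counts by the fractions gave the library totals. The counts sum to 2.55, 2.53 and 2.45 times the totals, for Cx43-deleted, for WT C57BL6-BALB/c and then for WT C57BL6. A read may thus be counted on more than 1 transcript, but the counting rule was not tested.

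The deposited coordinates reach 197054592 on chromosome 1 and are of an older build than GRCm38, so they were not used. Of the transcripts, 69379 (83.8%) matched GENCODE M21 by identifier, and 217 on another chromosome were left out. A gene was represented by its transcript with the most reads over the libraries instead of a sum over its transcripts. CPM are these reads over an effective library size, the total scaled by TMM factors (0.975, 0.995 and 1.03, libraries in that order; edgeR 4.0.16, R 4.3.3), times 1000000, and RPKM divide them by transcript length. Log2 ratios used a pseudocount of 0.5 CPM, and genes with 1 CPM in at least 1 library were kept. Clopper-Pearson intervals (scipy 1.17.1, Python 3.11.15) come from the read pairs and cover counting error only, and reads without molecular identifiers are not independent molecules. With 1 library per group no test was possible.

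The steps were tested on simulated counts that held counting error and planted folds alone. Differences between animals or preparations were not part of that simulation. The genes and lists were chosen with earlier results of these data known. Of each pathway list, genes 2-fold beyond both WT libraries (there were none), the 3 measured genes furthest below and the 3 furthest above both WT libraries were named, and of each marker list up to 4. Alternatives were median-of-ratios factors (DESeq2 1.42.0), library totals alone, sums over transcripts, the longest transcript, pseudocounts of 0.1 and 1, no filter, a minimum of 5 CPM, and log2 ratios relative to the endothelial or smooth muscle median.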

Additional observations from a re-analysis of the deposited data

How the results depend on the processing

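No paired analysis was possible because each group has 1 library, and for the same reason no library could be left out. Under median-of-ratios factors, library totals, sums over transcripts, the longest transcript and both pseudocounts, every log2 ratio of the 10 genes kept its sign except that of Ednra between the WT libraries, which was −0.0066 with library totals. Edn1 stayed past 2-fold against WT C57BL6, with log2 ratios from −1.12 to −1.02, and between the WT libraries, from −1.49 to −1.42. Depth limits Agtr1a and, less so, Prkg1.

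Setting the genes against a cell type's markers changed several values. Relative to the endothelial median, the median of the 10 stayed below 0 to WT C57BL6-BALB/c, at −0.18, and 8 of 10 kept their sign there. The median was 0.25 to WT C57BL6 and 0.37 for the WT pair, and in each only 3 of 10 kept their sign. Above both WT libraries then stood 3 genes, with 2 below. Relative to the smooth muscle median, the median of the 10 was 0.57 to WT C57BL6-BALB/c, −0.078 to WT C57BL6 and −0.69 for the WT pair. The sign was kept by 2 of 10, 6 of 10 and 9 of 10 in that order, with 4 genes above both WT libraries and 0 below both. Past 2-fold, 2 genes (Edn1 and Ace) were then above WT C57BL6-BALB/c, while 0 were below WT C57BL6 under either. Between the WT libraries 1 gene (Prkg1) was higher and 0 lower relative to the endothelial median, and under both the number with WT C57BL6 2-fold above the others was 0. Shares over all genes were not computed under these baselines, which shift every gene alike, so these counts have no background beside them. The cause was not tested.

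The following counts over all genes are of differences of 2-fold or more. With a pseudocount of 0.1, 353 genes were higher in the Cx43-deleted library than in WT C57BL6 instead of 230. In WT C57BL6-BALB/c, 280 were higher than in WT C57BL6 instead of 178, and 88 lay below both WT libraries in the Cx43-deleted library instead of 57. A minimum of 5 CPM gave 112 genes higher in WT C57BL6-BALB/c than in WT C57BL6 instead of 178. It gave 37 genes above both WT libraries in the Cx43-deleted library instead of 62.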

Other observations

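Other vasoactive peptides and their receptors, a list added after the data had been seen, were also mostly lower in the Cx43-deleted library. Of 35 genes listed, 32 were measured, with 19 below both WT libraries and 3 above, where 36.2% of all genes lay below both and 33.0% above. The median log2 ratio was −0.25 to WT C57BL6-BALB/c and −0.11 to WT C57BL6. P2ry2, a receptor of ATP and UTP, was the 1 gene of the list 2-fold below both, where 0.349% of all genes were. It was at 2.95 CPM in the Cx43-deleted library, against 6.51 CPM in WT C57BL6-BALB/c and 12.3 CPM in WT C57BL6. Tbxa2r, the receptor of the constrictor thromboxane, was at 8.03 CPM in the Cx43-deleted library, against 13.1 CPM in WT C57BL6-BALB/c and 19.0 CPM in WT C57BL6. Calcrl, the receptor shared by the dilators CGRP and adrenomedullin, was at 28.1 CPM in the Cx43-deleted library, against 40.2 CPM in WT C57BL6-BALB/c and 68.4 CPM in WT C57BL6. Vipr1, a receptor of the dilator peptide VIP, lay above both, at 120 CPM in the Cx43-deleted library, against 91.7 CPM in WT C57BL6-BALB/c and 65.4 CPM in WT C57BL6. The genes of this list were named after their values were seen.

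A few genes, chosen after their values were seen, followed the order of Edn1, with the Cx43-deleted library between a lower WT C57BL6-BALB/c and a higher WT C57BL6. Klf2, a transcription factor that endothelium makes under laminar flow, was at 148 CPM in the Cx43-deleted library, against 99.5 CPM in WT C57BL6-BALB/c and 321 CPM in WT C57BL6. Gch1, which makes the cofactor of nitric oxide synthases, was at 5.21 CPM in the Cx43-deleted library, against 3.89 CPM in WT C57BL6-BALB/c and 10.4 CPM in WT C57BL6. Agtrap, which binds the AT1 receptor and favours its uptake into the cell, was at 2.13-fold of WT C57BL6-BALB/c (1.90 to 2.38) and 0.656-fold of WT C57BL6 (0.613 to 0.702). Rgs2, a brake on G protein signals of constrictor receptors, had another order, at 19.2 CPM in the Cx43-deleted library, against 59.4 CPM in WT C57BL6-BALB/c and 26.1 CPM in WT C57BL6, a fold of 0.322 to WT C57BL6-BALB/c (0.297 to 0.350) and 0.733 to WT C57BL6 (0.665 to 0.809). Ren1, which encodes renin, had 21 reads in the Cx43-deleted library, against 1 read in WT C57BL6-BALB/c and 2 reads in WT C57BL6. Its fold was 8.25 to WT C57BL6-BALB/c (1.33 to 341) and 5.02 to WT C57BL6 (1.23 to 44.2), and at 0.392 CPM in the highest library it did not pass the level filter.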
